A study of Drosophila melanogaster with 12 samples.

Results

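The genes described are ion channels, ion pumps and proteins that bind channels. They were chosen by gene symbol. The rule uses no measured value, but it was written with earlier results of these data known, so the choice was not blind to them. The choice covered 45 named genes and every gene whose symbol begins with ppk. Of these, 26 had a value on at least 1 array, out of 6775 genes on the array. They comprise 24 of the 45 named genes and 2 ppk genes. The other 21 named genes, among them the sodium channel gene para and the pump gene Atpalpha, were not analysed here.

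Nerve cells fire because ions cross the membrane through channels that open and close with voltage. Sodium and calcium channels carry the inward currents of an action potential and of transmitter release, potassium channels repolarize the membrane, and the sodium pump rebuilds the ion gradients. In flies, mutations in several of these genes cause paralysis or seizures. Pentylenetetrazol (PTZ), the drug of the study, is a convulsant that blocks chloride channels gated by GABA.

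The flies were unmated Oregon-R wild-type males, 3 to 4 days old at the start by the series text and 4 to 5 days old by the sample labels, kept at 30 to a vial. They fed on PTZ at 8 mg/ml for 7 days and then on normal food, and pools of sieved heads were taken on day 8, 10 or 14, after 1, 3 or 7 days of withdrawal. Each of 12 spotted cDNA arrays of 2 colours, 4 for each day, set such heads against heads of flies that had only normal food. The arrays of a day are biological replicates by the labels.

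Every value is a log2 ratio of the heads in 1 channel to those in the other, relative to the array median, which was set to 0. The base of 2 is assumed, since no source used here names it, and all linear ratios below rest on it. A value above 0 means more RNA in the PTZ-withdrawn heads only if the channel labels hold. All 12 arrays are labelled with the treated heads in Cy5, but by the series text 2 of 4 arrays carried the dyes the other way round. For the treated heads of replicates 1, 2 and 3 of day 10, moreover, the labelling protocol gives Cy3. The direction is therefore not settled, and values are given below as above or below 0. In pooled heads, fewer cells of a type and less RNA per cell cannot be told apart. A ratio gives no level, so genes are not ranked by abundance.

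The 4 day 8 columns held equal values wherever they overlapped, 4790 of 4790 spots for the first pair at a tolerance of 0. They were counted as 1 sample, and day 8 values are given with no test. Twin spots, neighbouring spots of the same gene, differed with an SD of 0.589 to 0.755 at day 8, against 0.270 to 0.414 at day 10 and 0.245 to 0.443 at day 14. Across genes, which are not independent replicates, day 10 replicates 1 and 2 correlated at r = 0.50 and replicates 3 and 4 at r = 0.55, while arrays of different pairs lay between -0.07 and 0.03. Day 14 replicate 4 measured 6 of the 26 genes and replicate 2 measured 13, against 23 on replicate 1 and 19 on replicate 3. Each day 10 array measured 19 to 23.

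No channel, pump or binding-protein gene passed an adjusted p of 0.05 in limma at either day. At day 10, 21 of the 26 had values on at least 3 arrays and were tested, 9 with a mean above 0 and 12 below. Their median was -0.02, against 0.01 over all 4651 genes tested. None of the 21 was called, and 0% of all genes were. At an unadjusted p under 0.05 in limma there were 3 members, SKIP, nrv1 and nrv2, all below 0, against 5.61% of all genes called below 0 in that way. At day 14, 12 were tested, 7 above and 5 below 0, with a median of 0.10 against 0.01 over 3005 genes. Again none was called (0% of all genes), and 1 member, Ih, had an unadjusted p under 0.05 in limma, above 0, where 4.26% of all genes did so.

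**Figure D1:**
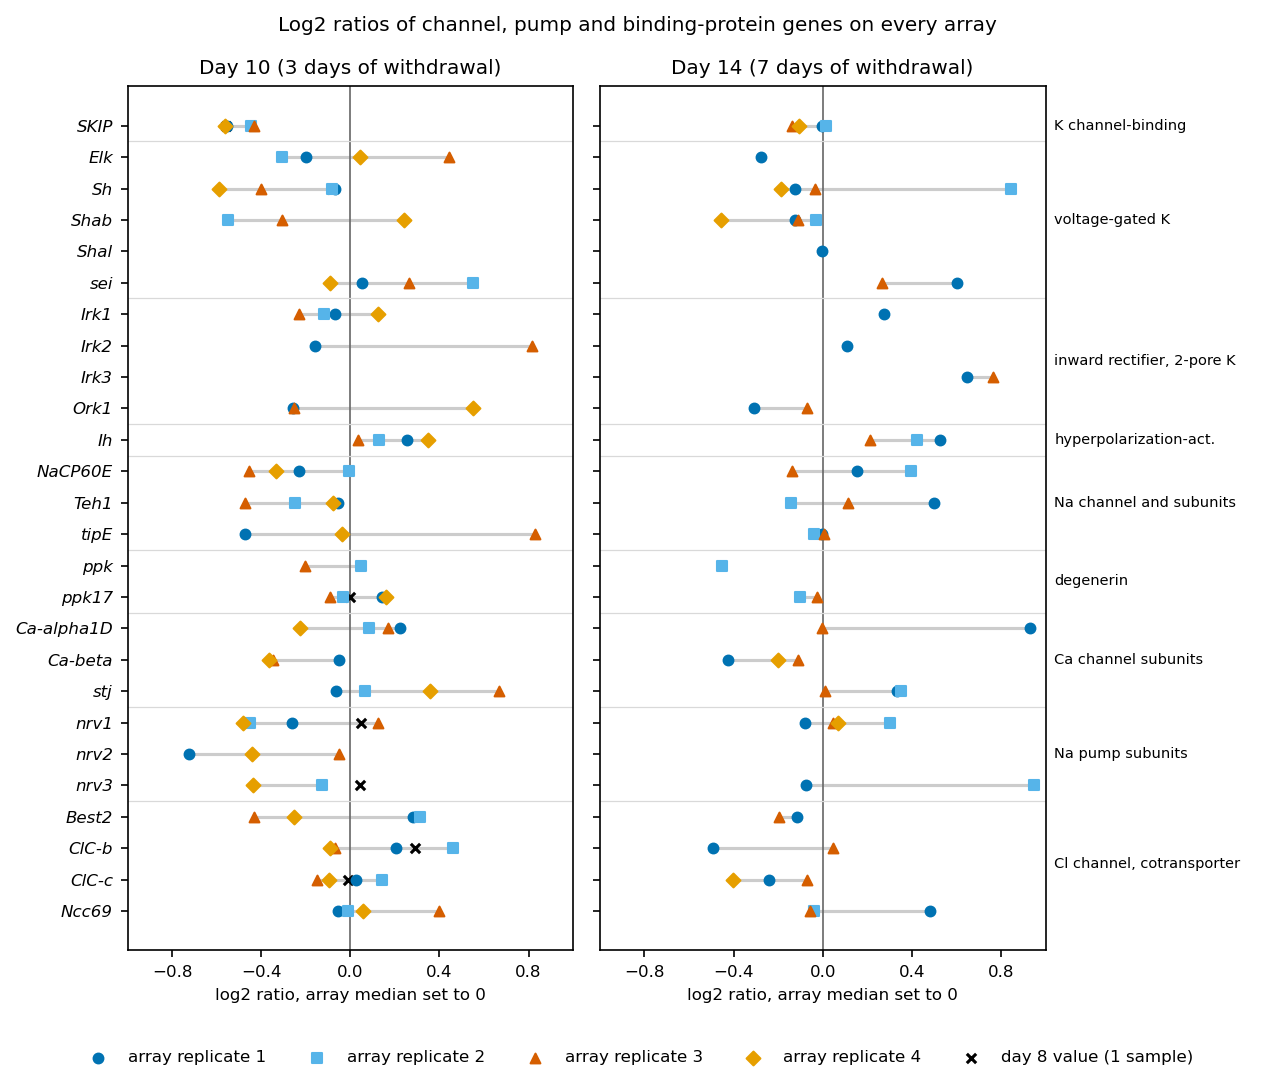
Each row is a gene, grouped by class (right), and each point is the log2 ratio on 1 array with the array median at 0, on day 10 (left panel) and day 14 (right panel). Grey lines join the lowest and highest array, and crosses in the left panel are values of the single day 8 sample, shown where at least 1 column held one. SKIP lies between -0.56 and -0.43 on the 4 day 10 arrays, where most other genes straddle 0. At day 14 SKIP lies between -0.14 and 0.013.

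The member with the smallest p at day 10 was SKIP, whose product binds the potassium channel Shal. It stood at -0.55, -0.44, -0.43 and -0.56 on replicates 1 to 4 of day 10. On day 14 the 4 arrays gave -0.0024, 0.013, -0.14 and -0.11. As labelled, the day 10 arrays all lay below every day 14 array. The share of all genes separated in this way was not counted. The day 10 mean was -0.50 ± 0.070 (SD, n = 4), a ratio of 0.708 with a 95% interval of 0.62 to 0.808. In limma its adjusted p was 0.0839 (unadjusted 0.000126), 7th of 4651 genes by p. At day 14 the mean was -0.058 ± 0.075 (n = 4, adjusted p = 0.927 in limma). The day 8 value was -0.56.

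The narrow spread of SKIP did not hold spot by spot. The gene has 4 pairs of twin spots, and the array values above average whichever pairs had a value. Pair 3 gave -0.60, -0.44, -1.01 and -0.93 on the day 10 replicates, a mean of -0.75 ± 0.27 (SD, n = 4). Pair 4 gave -0.69, 0.15 and -0.20 on replicates 1, 3 and 4, a mean of -0.25 ± 0.42 (n = 3). On replicate 3 these pairs therefore lay on opposite sides of 0, and the value of replicate 2 rests on pair 3 alone. Pair 2 was measured at day 10 on replicate 1 only, at -0.37, and it alone supplied the day 8 value. Pair 1 had no day 10 value. The RefSeq table lists 6 older gene models that were merged into SKIP, and the files do not say which model each pair represents.

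The size of the SKIP result followed these pairs. Without pair 3 the day 10 mean was -0.19 (adjusted p = 0.570 in limma), and without pair 4 it was -0.72 (adjusted p = 0.0563). These settings were chosen after the pairs had been seen. The mean also rests on the channel labels: because all 4 arrays had nearly the same value, turning the signs of 2 of them, the number of swapped arrays in the series text, left -8.3e-05 with replicates 3 and 4 turned, 0.0049 with 2 and 4 and -0.060 with 2 and 3. With replicates 1, 2 and 3 turned, as the labelling protocol would have it, the mean was 0.22 (adjusted p = 0.999 in limma). With the medians of consecutive runs of spots set to 0, also chosen afterwards, the mean was -0.34 (adjusted p = 0.254 in limma). Within the array pairs of day 10 the gene was below 0 on both arrays of each. A term that set replicates 1 and 2 against 3 and 4 took the adjusted p in limma to 0.0358, past the threshold. That fit called 0.645% of all genes, against 0% without the term. The labels do not give this grouping, which was seen in the correlations of these arrays. The term takes the difference between pairs out of the spread and still counts the arrays of a pair as separate samples. SAM, the test the series text names, was rewritten here as a one-class test, with calls at a false discovery rate under 0.05. It also counts the arrays of a pair as separate samples. At day 10 it called SKIP too. SKIP was the only call among the 16 members measured on all 4 arrays, where SAM called 1.54% of all genes. SAM called 0 of the 4 members complete at day 14 (0.279% of all genes).

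**Figure D2:**
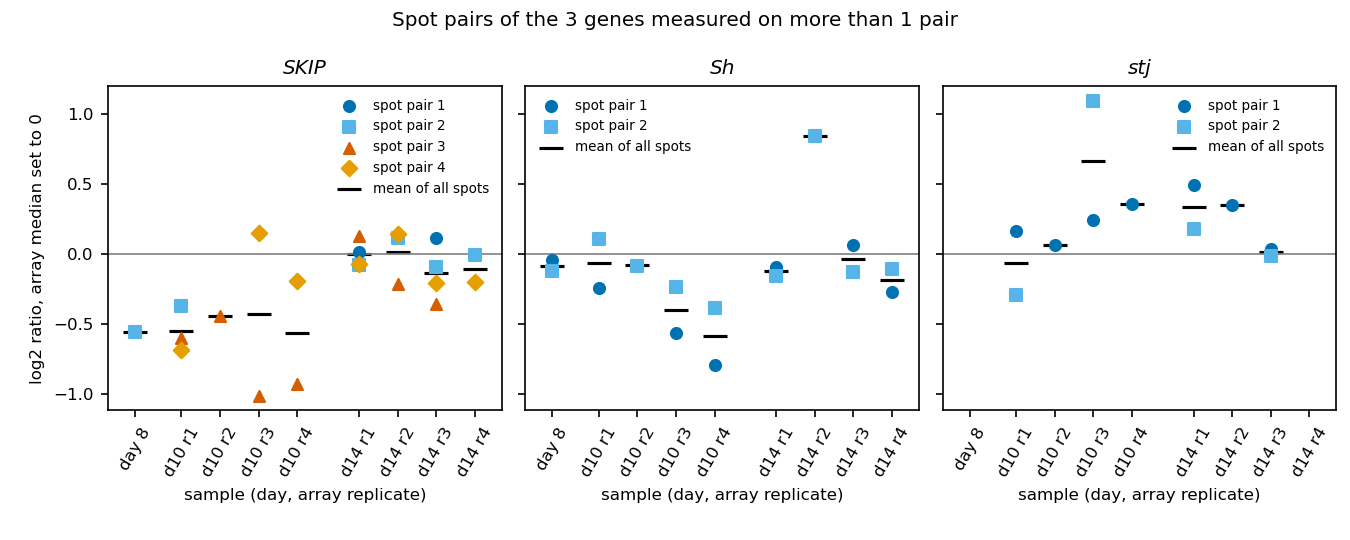
Log2 ratios (vertical axis, array median at 0) of each pair of twin spots of SKIP, Sh and stj, by sample (horizontal axis: day 8, then the 4 replicates of day 10 and of day 14). Coloured symbols are spot pairs and black bars the mean of all spots of the gene. On day 10 replicate 3, SKIP pairs 3 and 4 lie at -1.01 and 0.15 around a mean of -0.43.

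Among the voltage-gated potassium channels, 4 were tested at day 10, 1 above and 3 below 0, and none had an unadjusted p under 0.05 in limma. Sh encodes Shaker, the pore of a fast, inactivating potassium current. Its values were -0.069, -0.083, -0.40 and -0.59 on the day 10 replicates. On day 14 they were -0.13, 0.85, -0.035 and -0.19, and the day 8 value was -0.084. All 4 day 10 arrays lay below 0, replicates 3 and 4 clearly further than 1 and 2, and day 14 replicate 2 stood apart above all others. The day 10 mean of Sh was -0.29 ± 0.25 (SD, n = 4, adjusted p = 0.469 in limma), and the day 14 mean was 0.12 ± 0.49 (n = 4, adjusted p = 0.914).

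The 2 spot pairs of Sh differed in size. At day 10 pair 1 had a mean of -0.42 ± 0.32 and pair 2 a mean of -0.15 ± 0.21 (SD, both n = 4). Fitted as a feature of its own, pair 1 had an unadjusted p of 0.00863 and an adjusted p of 0.226 in limma. The high day 14 value of replicate 2 rests on pair 2 alone, since pair 1 had none there.

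Shab encodes a delayed rectifier that repolarizes neurons during repeated firing. It stood at -0.55, -0.31 and 0.24 on day 10 replicates 2, 3 and 4. On the day 14 replicates it stood at -0.12, -0.031, -0.11 and -0.46. All day 14 arrays were below 0, while the day 10 arrays lay on both sides. On day 10 replicate 4, the only array above 0, the twin spots lay 0.825 apart. The mean of Shab over both days was -0.19 (SE 0.10, adjusted p = 0.473 in limma). It was -0.11 without day 10 replicate 2, -0.30 without replicate 4 and -0.11 with runs of spots at 0.

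The other voltage-gated genes belong to the ether-a-go-go family or to the Shal type. sei, whose mutants are paralysed by heat, ranged from -0.09 to 0.55 on the 4 day 10 arrays and stood at 0.60 and 0.26 on day 14 replicates 1 and 3. All but 1 of its 6 values were above 0. Elk ranged from -0.31 to 0.45 at day 10 around a mean of -0.0036 ± 0.33 (SD, n = 4) and had 1 day 14 value, -0.28. Shal, the channel that the SKIP protein binds, was measured on day 14 replicate 1 only, at -0.0045, so its day 10 value cannot be set beside that of SKIP.

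Inward rectifiers and leak channels hold neurons and glia near their resting potential. None of the 2 tested at day 10 had an unadjusted p under 0.05 in limma. Irk1 ranged from -0.23 to 0.12 at day 10 (mean -0.073 ± 0.15, SD, n = 4). Its single day 14 value, 0.28, comes from twin spots 1.51 apart. Ork1, a leak channel, stood at -0.26, -0.25 and 0.55 on day 10 replicates 1, 3 and 4, with replicate 4 far above the others. Irk2 gave -0.16 and 0.81 on day 10 replicates 1 and 3. Irk3 had no day 10 value and stood at 0.65 and 0.76 on day 14 replicates 1 and 3, both high but on too few arrays for a test.

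Ih, the channel opened by hyperpolarization that paces rhythmic firing, lay above 0 on all 7 arrays that measured it, as labelled. Its day 10 values were 0.26, 0.13, 0.037 and 0.35. On day 14 replicates 1, 2 and 3 it stood at 0.53, 0.42 and 0.21. The days overlapped, with replicate 3 lowest on each. The mean was 0.19 ± 0.14 (SD, n = 4) at day 10 and 0.39 ± 0.16 (n = 3) at day 14. In limma the day 14 adjusted p was 0.631 (unadjusted 0.0077, 31st of 3005 genes by p). Over both days the mean was 0.29 (SE 0.077), a 95% interval of 1.09 to 1.38 as a ratio, with an adjusted p of 0.206 in limma. With runs of spots at 0 that mean was 0.17. Turned signs gave 0.079 for day 14 replicates 2 and 3, 0.15 for 2 and 4, 0.17 for day 10 replicates 2 and 4 and 0.18 for day 10 replicates 1, 2 and 3.

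The sodium channel class held NaCP60E, a homologue of the main sodium channel, and the auxiliary subunits tipE and Teh1, which raise sodium currents. All 3 were tested at both days and none had an unadjusted p under 0.05 in limma. NaCP60E stood at -0.23, -0.0080, -0.45 and -0.33 at day 10 and at 0.15, 0.40 and -0.14 on day 14 replicates 1, 2 and 3. Every day 10 array was below 0, and the groups overlapped through day 14 replicate 3. Its day 10 mean was -0.26 ± 0.19 (SD, n = 4, adjusted p = 0.380 in limma).

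Teh1 was likewise below 0 on all day 10 arrays, between -0.47 and -0.058, and ranged from -0.14 to 0.50 on 3 day 14 arrays. Its means were -0.21 ± 0.19 (SD, n = 4) and 0.16 ± 0.32 (n = 3). The twin spots of Teh1 on day 14 replicate 1, its highest array, lay 0.764 apart. tipE had the widest day 10 spread of the tested members, from -0.47 on replicate 1 to 0.83 on replicate 3. At day 14 its 3 values lay between -0.04 and 0.004.

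The degenerin channel genes are named for pickpocket (ppk), a sodium channel subunit of sensory neurons that detect noxious touch. ppk stood at 0.049 and -0.21 on day 10 replicates 2 and 3 and at -0.45 on day 14 replicate 2. ppk17 stayed close to 0, between -0.09 and 0.16 on the 4 day 10 arrays and at -0.10 and -0.028 on 2 day 14 arrays. Its mean at day 10 was 0.044 ± 0.12 (SD, n = 4, adjusted p = 0.898 in limma), with a 95% interval of 0.884 to 1.20 as a ratio.

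The auxiliary calcium channel subunits stj and Ca-beta lay on opposite sides of 0. Ca-beta, the cytoplasmic beta subunit, stood at -0.052, -0.35 and -0.36 on day 10 replicates 1, 3 and 4. On day 14 replicates 1, 3 and 4 it stood at -0.42, -0.11 and -0.20. All 6 arrays were below 0 and the days overlapped. Its day means were -0.25 ± 0.18 and -0.25 ± 0.16 (SD, both n = 3). Over both days the mean was -0.25 (SE 0.087, adjusted p = 0.310 in limma). With runs of spots at 0 it was -0.072, with an unadjusted p of 0.413 in limma against 0.0187. It was -0.013 with day 10 replicates 3 and 4 turned.

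stj encodes the alpha2delta subunit, which brings calcium channels to the synapse. At day 10 it stood at -0.064, 0.064, 0.67 and 0.36, and on day 14 replicates 1, 2 and 3 at 0.34, 0.35 and 0.012. All but 1 of the 7 arrays were above 0, and day 10 replicates 3 and 4 were higher than 1 and 2. The mean over both days was 0.24 (SE 0.10, adjusted p = 0.353 in limma), and with runs of spots at 0 it was 0.15. At day 10 spot pair 1 averaged 0.21 ± 0.12 (SD, n = 4), while pair 2 gave -0.29 on replicate 1 and 1.09 on replicate 3. Ca-alpha1D, the pore of an L-type calcium channel, ranged from -0.23 to 0.22 at day 10 (mean 0.062 ± 0.20, SD, n = 4). On day 14 it stood at 0.93 on replicate 1, where its twin spots lay 0.719 apart, and at -0.002 on replicate 3.

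The sodium pump was represented by its beta subunits nrv1, nrv2 and nrv3, and both that were tested at day 10 were below 0. nrv1 stood at -0.26, -0.45, 0.12 and -0.48 on the day 10 replicates. On day 14 it stood at -0.078, 0.30, 0.045 and 0.067, and at day 8 at 0.050. Day 10 replicate 3 was the only one above 0, and it lay within the day 14 range. The day 10 mean was -0.27 ± 0.28 (SD, n = 4, unadjusted p = 0.0430, adjusted p = 0.362 in limma). The unadjusted p in limma was 0.0886 without replicate 1, 0.161 without replicate 2 and 0.168 without replicate 4. Leaving out replicate 3 moved it the other way, to 0.0057 (adjusted p = 0.329 in limma), with a mean of -0.40. With runs of spots at 0 the mean was -0.15.

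nrv2, a subunit known for its expression in glia, stood at -0.72, -0.052 and -0.44 on day 10 replicates 1, 3 and 4 and had no day 14 value. All 3 arrays were below 0, replicate 3 barely so, and the twin spots of replicate 4 lay 1.30 apart. Its mean was -0.41 ± 0.34 (SD, n = 3, unadjusted p = 0.0369, adjusted p = 0.344 in limma). Without replicate 1 it was -0.25, with an unadjusted p of 0.214 in limma, and without replicate 4 that p was 0.107. Leaving out replicate 3 gave a mean of -0.58, with an unadjusted p of 0.0118 and an adjusted p of 0.389 in limma. Each of these fits without a replicate kept only 2 day 10 arrays with a value. Glia markers, of which 8 of 11 were on the array, had medians of -0.41, -0.30, 0.066 and 0.14 on day 10 replicates 1 to 4. Their part in the nrv2 values was not tested. nrv3, a subunit of the nervous system, stood at -0.13 and -0.44 on day 10 replicates 2 and 4, at -0.074 and 0.95 on day 14 replicates 1 and 2, and at 0.045 in 2 day 8 columns.

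Of the chloride channels and cotransporters, 4 were tested at day 10, 2 above and 2 below 0, and none had an unadjusted p under 0.05 in limma. ClC-b, of the family of chloride channels and exchangers, stood at 0.21, 0.46, -0.070 and -0.093 at day 10. It stood at -0.49 and 0.046 on day 14 replicates 1 and 3 and at 0.29 at day 8. The first 2 day 10 arrays were above 0 and the other 2 below, and the mean was 0.13 ± 0.26 (SD, n = 4, adjusted p = 0.731 in limma). It was 0.015 without replicate 2, 0.19 without replicate 3, 0.20 without replicate 4 and 0.032 with runs of spots at 0.

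ClC-c, of the same family, gave 0.024, 0.14, -0.15 and -0.096 at day 10 and -0.24, -0.069 and -0.40 on day 14 replicates 1, 3 and 4. Every day 14 array was below 0, and the days overlapped. The day 14 mean was -0.24 ± 0.17 (SD, n = 3, adjusted p = 0.751 in limma) and -0.16 without replicate 4, and the day 8 value was -0.013 in 2 columns. Best2, a bestrophin, divided the day 10 arrays in the same way, with 0.28 and 0.31 on replicates 1 and 2 and -0.43 and -0.25 on replicates 3 and 4. Ncc69, a cotransporter that takes up sodium, potassium and chloride, ranged from -0.055 to 0.40 at day 10 and from -0.059 to 0.48 on 3 day 14 arrays. What the array pairs of day 10 stand for is not stated in the labels.

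**Figure D3:**
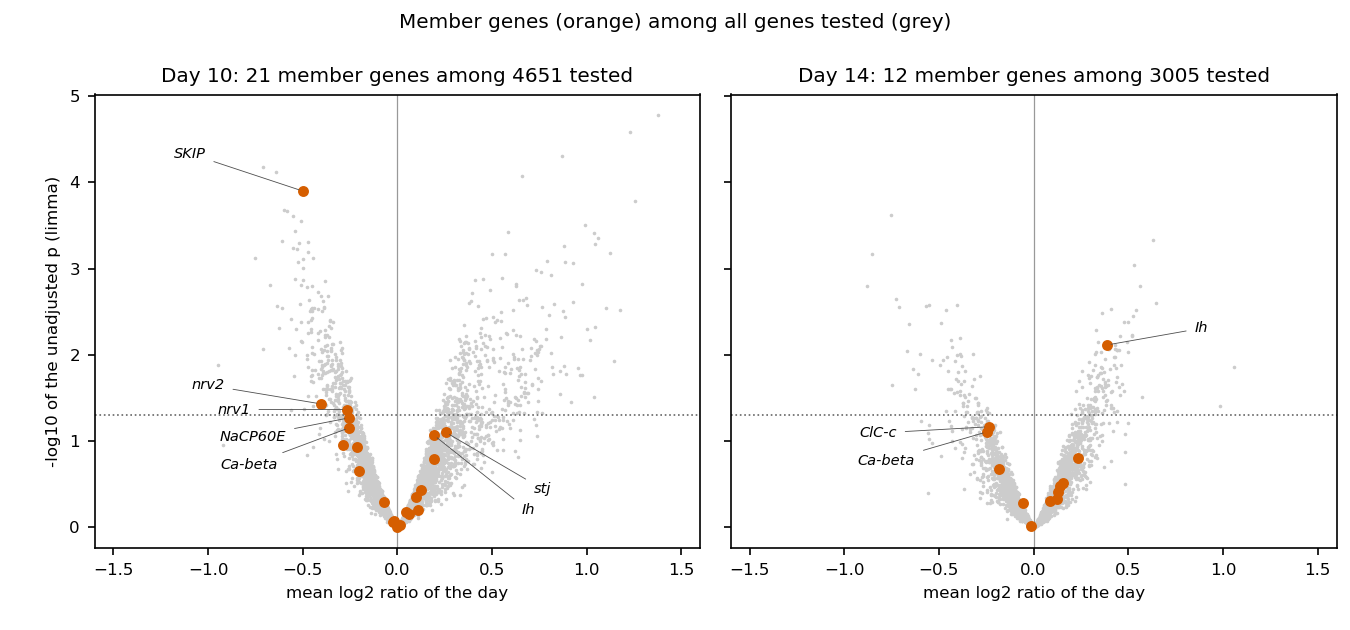
Mean log2 ratio of the day (horizontal axis) against -log10 of the unadjusted limma p (vertical axis) for all genes tested (grey) and the member genes (orange), at day 10 (left) and day 14 (right). The dotted line marks an unadjusted p of 0.05, and members with p under 0.09 are named. SKIP, nrv2 and nrv1 lie above the line at day 10 and Ih at day 14, and none has an adjusted p under 0.05.

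The shares of genes with 1 sign on every array hold only for the signs as labelled. At day 10, SKIP, Sh, NaCP60E, Teh1, Ca-beta and nrv2 were below 0 on every array that measured them, 6 of 21, against 13% of all genes. Ih was above 0 on every array, 1 of 21 against 12.2%. At day 14, Shab, Ca-beta and ClC-c were below 0 throughout, 3 of 12 against 12.7%. Ih and stj were above 0 throughout, 2 of 12 against 14.5%. With signs turned on replicates 1, 2 and 3 or on 2 arrays of day 10, 1 or 2 members were below 0 throughout and 0 to 3 above. All genes then gave 3.16% to 15.4% below and 3.78% to 16% above. The 7 genes named for day 10 could not be among those members. Turning some arrays of a gene with 1 sign always gives it both signs. With 2 arrays of day 14 turned, 0 or 1 member of 12 was below and 1 above throughout. All genes then gave 8.42% to 10.2% below and 9.15% to 13.7% above. These are descriptions of a chosen group of genes, with no test of the group.

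The difference from day 10 to day 14 was tested for the 12 genes measured on at least 3 arrays of both days. It was above 0 for 9 and below for 3, with a median of 0.11 against -0.0072 over 2382 genes. No member was called in limma (0% of all genes). SKIP had the largest difference at 0.44 (SE 0.12, adjusted p = 0.644 in limma) and was the only member with an unadjusted p under 0.05, above 0, where 3.57% of all genes were. Sh differed by 0.41 (SE 0.23), NaCP60E by 0.39 (SE 0.18), Teh1 by 0.37 (SE 0.19) and nrv1 by 0.35 (SE 0.17). Without day 14 replicate 2 the Sh difference was 0.17. The largest difference below 0 was that of ClC-c at -0.22 (SE 0.15). Each of these 5 genes other than SKIP had a 95% interval that reached 0. Without pair 3 the SKIP difference was 0.17 (adjusted p = 0.833 in limma). With the signs of 2 day 10 arrays turned it lay between -0.063 and 0.0019.

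Over the mean of both days, 4 of the 12 were above and 8 below 0, with a median of -0.070 against 0.016 over all genes. No member was called in limma (0% of all genes). At an unadjusted p under 0.05, Ih and stj lay above 0, where 6.68% of all genes did, and SKIP and Ca-beta below, where 6% did. Leaving out single replicates took the unadjusted p in limma up to 0.0689 for Ca-beta (without day 14 replicate 1) and 0.101 for stj (without day 14 replicate 2). SKIP had a mean of -0.28 (SE 0.061, adjusted p = 0.124 in limma). These counts rest on the array medians having been set to 0. In the values as deposited, whose day 14 columns had medians of 0.558 to 1.588, limma called all 12 members at day 14 (99.7% of all genes), all 12 between the days (98.6%) and 7 over both days (83.5%).

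**Figure D4:**
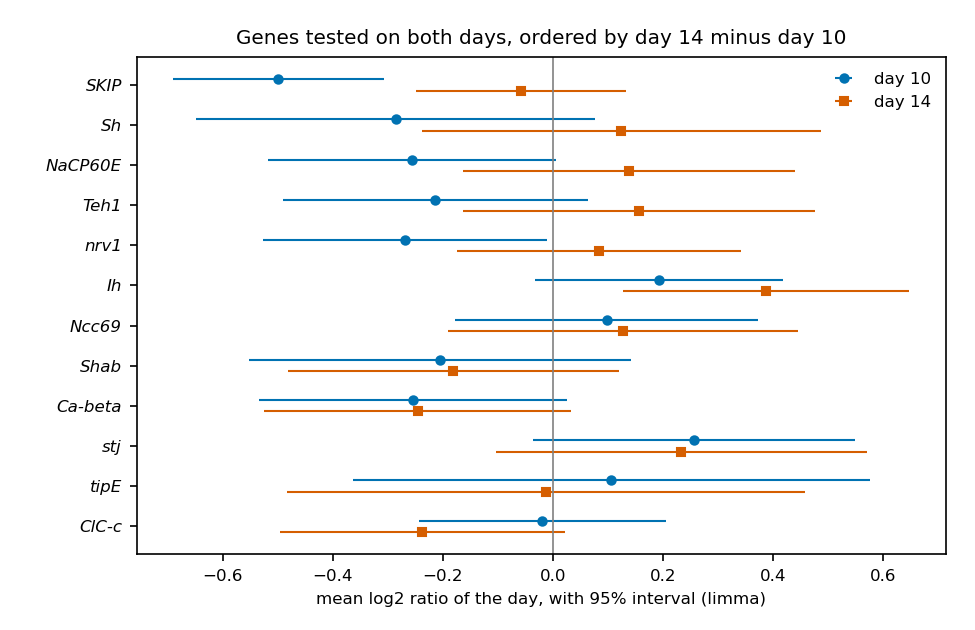
Mean log2 ratio with its 95% interval from limma (horizontal axis) at day 10 (circles) and day 14 (squares) for the 12 genes tested on both days, ordered by the difference of day 14 minus day 10. SKIP at day 10 (-0.50) and day 14 (-0.058) has the largest difference, 0.44, and Ca-beta and stj keep nearly the same mean on both days.

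At day 8, 4 members had a value in at least 3 of the 4 columns, with a median of -0.017 against 0.030 over 518 genes. SKIP was the only member at least 0.5 from 0, where 8.49% of all genes were. nrv1, Sh and ClC-b lay between -0.084 and 0.29. ppk17 had a value of -0.002 in 1 column.

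Other genes that act on channels or move ions were described from lists by the same tests, and none of their genes was called at either day. Apart from members, genes named from these and the tissue lists were among those of each list with the smallest p in limma. Of 9 channel regulators tested at day 10, 7 were below 0, with a median of -0.15. The ankyrin genes Ank2 and Ank, which anchor channels in the membrane, stood at -0.36 ± 0.066 and -0.47 ± 0.073 (SD, both n = 4, adjusted p = 0.190 and 0.215 in limma). Both were below 0 on all 4 arrays. At day 14, 5 of 7 regulators were above 0, with a median of 0.089. Of 10 other pumps and transporters tested at day 10, 6 were above 0. The anion exchanger gene Ae2 was below at -0.30 ± 0.12 (n = 4, adjusted p = 0.227 in limma).

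Of 4 TRP channels tested at day 10, 3 were above 0. Trpml, a channel of lysosomes, stood at 0.89 ± 0.45 (SD, n = 3, adjusted p = 0.114 in limma), and trpl, a light-activated channel of photoreceptors, at 0.31 ± 0.30 (n = 4, adjusted p = 0.273). The mitochondrial calcium uniporter gene MCU was the 1 gene of calcium release and entry tested, at -0.40 ± 0.13 (n = 3, adjusted p = 0.349 in limma). Of the other chloride channels, subdued stood at -0.26 ± 0.16 and Clic at 0.61 ± 0.70 (both n = 3). The innexins, which form gap junctions, had a median of 0.0044 over 3 genes. Of 18 genes listed for mutants with seizures or paralysis, 2 were on the array, sei and mle, and mle stood at -0.068 ± 0.31 (n = 3).

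Marker lists of tissues that heads hold showed no gene called. The neuron list had 2 of 12 genes on the array, and its single tested gene, nSyb, stood at 0.17 at day 10 and at 0.22 ± 0.080 (SD, n = 3) at day 14. Medians on the 4 day 10 arrays ran from -0.20 to 0.15 for muscle markers (10 on each array), from -0.10 to 0.49 for fat body markers (10 to 15) and from 0.00025 to 0.16 for photoreceptor markers (4 to 7). Of all genes tested, 46.9% were below 0 at day 10, 47.7% at day 14 and 51.4% in the difference.

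The fat body list had 12 of 14 tested genes above 0 at day 10 and 4 of 9 at day 14, and the difference was below 0 for 8 of 9, with a median of -0.33. Muscle markers were above 0 for 5 of 9 at day 10 and 6 of 7 at day 14. Their difference was above 0 for 5 of 5, with a median of 0.15. At day 14, Act88F and Act79B, actins of muscle, stood at 0.33 ± 0.038 (SD, n = 3) and 0.26 ± 0.011 (n = 4), with adjusted p = 0.631 and 0.642 in limma. Photoreceptor markers were above 0 for 4 of 7 at day 10 and 6 of 6 at day 14, with 3 of 6 differences above 0. Glia markers had 1 of 4 above 0 at day 10 and 2 of 4 at day 14. The trachea and cuticle list had 2 of 4 above 0 at day 10 and the blood cell list 2 of 2. Of the 26 channel, pump and binding-protein genes, 21, 19, 23 and 22 had a value on day 10 replicates 1 to 4. Their medians there were -0.064, -0.0090, -0.09 and -0.091. The part of other tissues in these values was not tested.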

How the data were processed

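The deposited values are log ratios of single spots. The authors, per the series text, quantified images with GenePix Pro 6.0, normalized by ratio in Acuity 4.0, kept spots with under 3% saturated pixels, an R2 of 0.6 or more and a signal 3 times the noise or more, and used SAM 2.21. No source used here names the logarithm's base, taken as 2. The median of each deposited log2 column, up to 1.588 at day 14, was set to 0 here.

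Of 27648 spots, 15116 had a single gene name and were used, 12430 had no name here, and 102 had more than 1. Names were updated from a RefSeq table (release 6), 14894 by gene number. The RefSeq spelling Teh1 stands for TEH1, and NaCP60E was matched by an older locus tag. Spots were averaged per gene and array. 23 of the 26 genes rest on 1 pair of spots.

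All genes on the 8 arrays of days 10 and 14 were fitted with limma 3.58.1 (R 4.3.3), a mean per day and 1 shared spread (prior degrees of freedom 5.08). Testing a gene at a day required values on at least 3 of 4 arrays, and a call is a Benjamini-Hochberg adjusted p under 0.05 over all genes tested. In fits that left out a replicate, the same genes were tested if at least 2 arrays of the day still had a value. The number of arrays limits the precision. Genes given in full were SKIP, members with an unadjusted p under 0.05 in any comparison, members with 3 day 8 columns and the member farthest from 0 over both days in each class. The fit was run on simulated data with independent arrays and changes larger than any member mean tested. That run does not show how the fit does on correlated arrays or smaller changes. Members, lists and tests were chosen with earlier results of these data known. Alternatives changed the centring, scaling, filter, spots, signs, replicate block, array pairs, test and each replicate.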

Additional observations from a re-analysis of the deposited data

Results flagged for a closer look

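Sh at day 14 had 1 array far from the others. Replicate 2 stood at a log2 ratio of 0.847, while replicates 1, 3 and 4 lay between -0.19 and -0.035. The gap to the nearest array was 0.851 of the whole range, above Dixon's 95% critical value for 4 samples. In all, 20 sets of 4 arrays were examined in this way, and chance marks about 1 in 20. The value rests on spot pair 2 alone, whose twin spots lay 0.14 apart. Without it the difference of Sh from day 10 to day 14 was 0.17 instead of 0.41.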

How the results depend on the processing

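No member was called in limma at day 10, at day 14, between the days or over both days when any replicate was left out (0 in each case), with signs turned, or under the filters, scaling and spot averages tried. Calls appeared under 3 settings. In the values as deposited, where column offsets remain, 12 members were called at day 14, 12 between the days and 7 over both days. Their medians were -0.27 at day 10, 1.21 at day 14 and 1.59 for the difference, and day 8 had 0 members past 0.5 and a median of 0.15. The term for day 10 array pairs, a grouping the labels do not give, called 1 member, SKIP, and SAM called 1, SKIP. Leaving out replicates gave medians of -0.034 to -0.019 at day 10, -0.017 to 0.14 at day 14 (lowest without replicate 1, 0.0044 without replicate 2) and 0.091 to 0.25 for the difference (highest without day 10 replicate 4). The day 14 median was 0.0063 with day 14 replicates 2 and 4 turned and -0.035 with 2 and 3 turned. The median difference was -0.0051 with day 10 replicates 2 and 4 turned and 0.26 with day 14 replicates 3 and 4 turned. Single genes changed side of 0 as follows. As deposited, Ca-beta over both days was 0.073, Shab over both days 0.21, ClC-c at day 14 0.66 and ClC-b at day 10 -0.12. With day 10 replicates 1, 2 and 3 turned, the day 10 means were 0.22 for SKIP, 0.11 for nrv2, 0.028 for nrv1 and -0.17 for ClC-b, the SKIP difference was -0.28, and Shab over both days was 0.092. With replicates 2 and 4 turned, day 10 means were 0.0049 for SKIP, 0.20 for nrv1 and -0.059 for ClC-b, and the SKIP difference was -0.063. With 3 and 4 turned, the differences were -0.058 for SKIP and -0.085 for Sh, and stj over both days was -0.012. With 2 and 3 turned, ClC-b was -0.07 and Shab 0.092. ClC-c at day 14 was 0.076 with day 14 replicates 3 and 4 turned and 0.030 with 2 and 4 turned. Where 2 arrays were turned, SKIP at day 10 was near 0 in each case, also at -8.3e-05 with 3 and 4 turned and -0.060 with 2 and 3 turned. These reversals follow from turning the signs or from the column offsets. Replicate numbers are shared between days. Same-numbered arrays correlated at r = -0.078, 0.28, 0.086 and 0.12 in their deviations. Of the day 10 arrays, only replicate 2 correlated best with its own number. With the directions of the arrays not settled, these values do not show whether the numbers pair the arrays. With the replicate number as a block, 0 members were called, the median difference was 0.13 and the SKIP difference was 0.44 (adjusted p = 0.679 in limma). Over all genes, limma called 78 at day 10 without replicate 1, 12 without replicate 2 and 1 without replicate 4, against 0 with all arrays, and 5 under the block. Over both days it called 5 genes without day 10 replicate 1, and between the days 3. A median SE of 0.128 at day 10 limits what could be called.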
